A study of Homo sapiens with 12 samples.

Results

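The difference between the hypoxia responses of T98G and LN229, a pair of established human glioblastoma cell lines, was examined in circular RNAs (circRNAs). For each circRNA the log2 fold change of hypoxia over normoxia in LN229 was subtracted from that in T98G, so a value above 0 means that the ratio of hypoxia to normoxia was higher in T98G. The contrast used all 12 of the 12 libraries of the series, 3 in each of 4 groups: T98G in hypoxia, T98G in normoxia, LN229 in hypoxia and LN229 in normoxia. Per the labels, hypoxic cultures were kept at 1% O2 with 5% CO2, normoxic cultures in 95% air with 5% CO2, and both lines grew in the same serum-containing medium. The labels state neither the hours spent in hypoxia nor that the 3 libraries of a group are separate cultures. The p-values below thus reflect only how much those libraries vary, and that variation may be technical. Of 12538 circRNAs listed, 9526 had a read and 244, from 205 host genes, reached 5 reads in 3 or more libraries and were tested. Of 3985 host genes with a read, 416 passed the same limit after the reads of all their circRNAs were summed.

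A circRNA is a closed loop formed when the splicing machinery joins the end of a downstream exon to the start of an upstream one, and it is counted by reads that cross this back-splice junction. Loops lack free ends, are often long-lived, and can differ in level from the linear RNA of their host gene. Low oxygen stabilises the HIF transcription factors and alters the transcription and splicing of many genes, and hypoxic regions are a hallmark of glioblastoma. Each loop is named here by its host gene, and a response of a loop is not a response of the host's linear RNA or protein.

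Among the loops that lead the comparison, the back-splice junction is shown for 6, to identify the molecules that the reads counted. The last 30 bases of the loop's last exon are in lower case and the first 30 bases of its first exon are in capitals, in the direction of the transcript. The sequences come from GENCODE 29 transcripts (GRCh38), matched by host gene, genomic span and spliced length, while all loop coordinates are those of the deposited table, in hg19.
GUSBP1, exons 4 to 6: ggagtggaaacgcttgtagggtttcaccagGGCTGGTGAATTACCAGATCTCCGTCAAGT
CAMSAP1, exons 2 to 3: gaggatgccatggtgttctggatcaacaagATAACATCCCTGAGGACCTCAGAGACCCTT
PLA2G4A, exons 4 to 7: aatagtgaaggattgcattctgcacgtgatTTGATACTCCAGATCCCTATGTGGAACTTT
FAM13B, exons 8 to 10: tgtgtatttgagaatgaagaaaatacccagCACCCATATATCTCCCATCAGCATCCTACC
FANCL, exons 2 to 5: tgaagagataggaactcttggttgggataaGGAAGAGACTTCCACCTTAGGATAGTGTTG
FANCL, exons 2 to 7: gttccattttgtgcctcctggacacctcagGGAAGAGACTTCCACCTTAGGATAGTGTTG
The FANCL loops start at the same exon, so the capitals are identical and the lower-case parts tell the 2 apart. The GUSBP1 loop lies at chr5:21491430-21497305 on the plus strand and is 448 nt long, and the CAMSAP1 loop at chr9:138773479-138774924 on the minus strand is 425 nt long. The PLA2G4A loop spans chr1:186862143-186880521 (plus strand, 443 nt) and the FAM13B loop chr5:137320946-137324004 (minus strand, 331 nt). The FANCL loops span chr2:58449077-58459247 (278 nt) and chr2:58425729-58459247 (444 nt) on the minus strand.

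The libraries held 4298 to 7608 junction reads, and the tested loops took 36.8% of all 71526 reads. CPM, the counts scaled by a library's junction reads, made libraries comparable. With TMM scaling 1 read was worth 146 to 203 CPM. A loss of cells that carry a loop cannot be told apart from less of the loop per cell. Some libraries stood apart from their group, so their labels are in doubt. Groups are used as labelled, every difference below rests on those labels, and why these libraries stand apart was not tested. LN229 normoxia replicate 3 correlated at 0.0711 and 0.0808 with the other LN229 normoxia libraries (Pearson's r over 244 loops, log2 CPM), at 0.730 to 0.786 with the T98G hypoxia libraries and at 0.765 with LN229 hypoxia replicate 1. It agreed within sampling noise with T98G hypoxia replicate 3 (chi-square test over 121 loops, p = 0.619). T98G normoxia replicate 3 correlated at 0.425 and 0.390 with its own group and at 0.613 to 0.634 with T98G hypoxia. The LN229 hypoxia group was also split. Its replicate 3 correlated at 0.323 with replicate 1 and 0.684 with replicate 2, and at 0.482 and 0.439 with LN229 normoxia replicates 1 and 2. LN229 hypoxia replicate 1 differed from replicates 2 and 3 beyond sampling noise (chi-square tests, p = 1.3e-16 and 6.2e-23). CYP24A1 circRNAs took 18.1% to 21.5% of the reads in T98G hypoxia, 0%, 0.0233% and 11.3% in T98G normoxia replicates 1 to 3, 22.6%, 5.61% and 0.0177% in LN229 hypoxia replicates 1 to 3, and 0.0353%, 0.0419% and 24.7% in LN229 normoxia replicates 1 to 3. Of 12 pairs of libraries of the same group, 4 agreed within sampling noise over the tested loops, and so did 4 pairs that join a T98G with an LN229 library (chi-square tests). Each library was counted separately, and with the 4 pairs of the same group summed and counted as 1 library each the count of loops that differed between the lines was still 0. Astrocyte and glioma genes (GFAP, S100B, OLIG1, OLIG2, SOX2, NES, AQP4 and VIM) had no junction read for any of the 8, so the labelled cell type was not checked by these reads.

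No loop had a difference between the lines that passed an adjusted p of 0.05 in edgeR's quasi-likelihood test with Benjamini-Hochberg adjustment, which is 0% of 244, and the smallest adjusted p was 0.401. At an unadjusted p under 0.05 there were 19 loops (7.79%), of which 10 lay above 0 (4.10%) and 9 below 0 (3.69%). DESeq2 also called 0 loops. The log2 differences had a standard deviation of 1.49 over all loops, against a median SE of 1.12 for 1 loop, and their median was 0.03. The values below therefore describe the direction and size of responses in these libraries and do not establish for any loop that the lines differ.

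Hypoxia and normoxia libraries were apart for more loops in T98G than in LN229, a difference that was not tested. In T98G the 3 hypoxia libraries all lay above or all below the 3 normoxia libraries for 90 loops (36.9%), 43 with higher (17.6%) and 47 with lower values (19.3%) in hypoxia. In LN229 this held for 24 loops (9.84%), 14 higher (5.74%) and 10 lower (4.10%) in hypoxia. With 3 against 3 libraries, about that LN229 share is expected to be apart when the order of the libraries is random. The LN229 counts here are therefore descriptions and do not show a response. A loop was counted as specific to a line when the oxygen groups did not overlap in that line, overlapped in the other, and the other line's fitted change was under 0.5 on the log2 scale. This gave 34 T98G-specific loops (13.9%; 18 higher in hypoxia, 7.38%, and 16 lower, 6.56%) and 11 LN229-specific loops (4.51%; 7 higher, 2.87%, and 4 lower, 1.64%). A further 49 loops were apart in T98G only (20.1%) and 6 in LN229 only (2.46%) with a larger fitted change in the other line, and 137 overlapped in both (56.1%). Another 7 loops (2.87%) were apart in the same direction in both lines, and 0 (0%) were apart in opposite directions. Without LN229 normoxia replicate 3 the counts were 23 T98G-specific, 20 LN229-specific, 36 in the same direction and 1 opposite. With a library fewer, the LN229 groups are apart more easily, so these counts cannot be compared directly with those of all libraries.

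Taken by the sign of the fitted change alone, 74 loops were above 0 in both lines and 79 below 0 in both. A further 47 were above 0 in T98G and below 0 in LN229, and 44 were below 0 in T98G and above 0 in LN229. The signs thus agreed for 62.7% of loops, and Pearson's r between the responses across loops was 0.568 (Spearman's rho 0.304; 244 loops, which are not independent replicates, and no library shared by the responses). Without LN229 normoxia replicate 3 the share was 71.3% and r was 0.764 (rho 0.631). Without LN229 hypoxia replicate 1 the share was 51.2% and r was 0.259 (rho -0.000324). Some loops had no read in a group, such as ITGA4 (-7.93 in T98G, -7.17 in LN229) and HLA-DRB1 (-6.09 in T98G, -5.53 in LN229). Their fitted changes depend on the prior count and lie far from 0, so they weigh more on r than on rho.

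**Figure D1:**
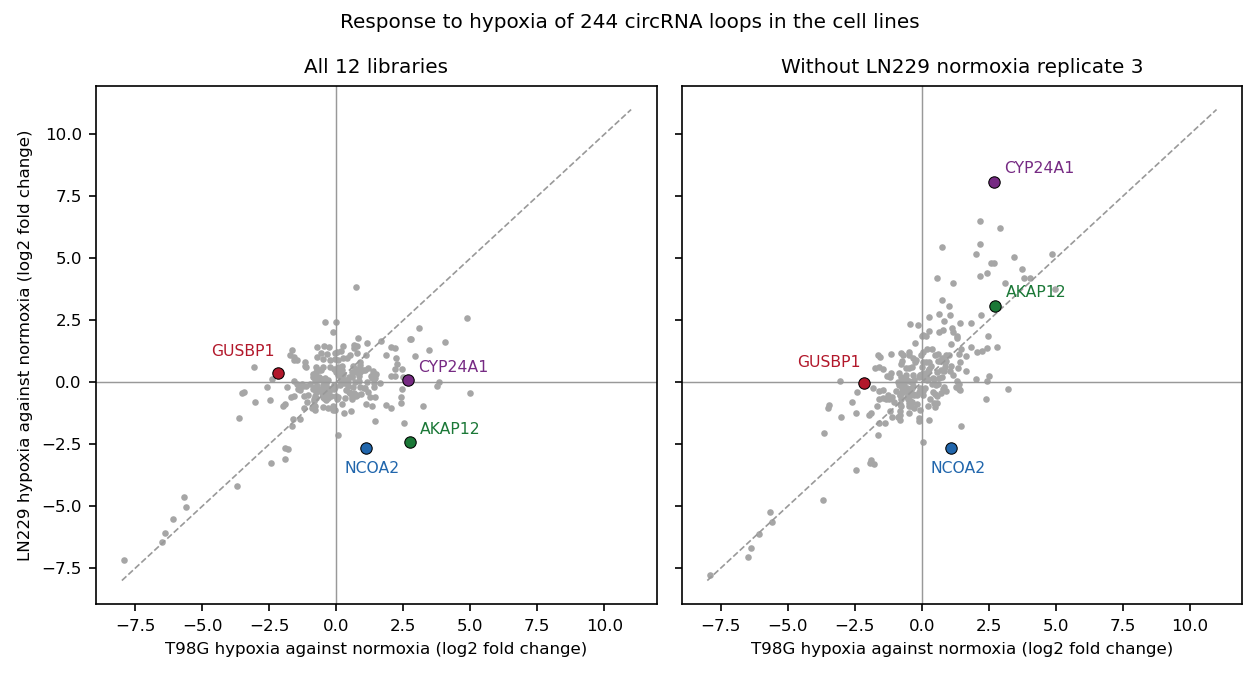
Log2 fold change of hypoxia over normoxia of 244 loops in T98G (x axis) and in LN229 (y axis), with all 12 libraries (left) and without LN229 normoxia replicate 3 (right). Each point is a loop and the dashed line marks equal responses; with all libraries AKAP12 (2.75 in T98G, -2.41 in LN229) and CYP24A1 (2.68 in T98G, 0.09 in LN229) lie below the line, and without that library at it or above it, while NCOA2 (1.10 in T98G, -2.64 in LN229) stays below the line in both panels.

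Most of the leading differences below 0 came with lower values in T98G hypoxia. GUSBP1, a pseudogene of beta-glucuronidase, had 4, 6 and 5 reads in T98G hypoxia, against 29, 22 and 19 in T98G normoxia, and 11, 24 and 31 reads in LN229 hypoxia, against 20, 22 and 6 in LN229 normoxia. The oxygen groups did not overlap in T98G and overlapped in LN229, where normoxia replicate 3 was the lowest of the 6. The fitted log2 response was -2.16 (SE 0.58) in T98G and 0.38 (SE 0.50) in LN229, a difference of -2.54 (SE 0.76) with the smallest p of all loops (adjusted p = 0.401, edgeR quasi-likelihood, Benjamini-Hochberg). GUSBP1 belongs to a family of near-identical copies, so reads may be shared between them. Without normoxia replicate 3 of both lines the GUSBP1 difference was -2.33 and passed the test (adjusted p = 0.0455, same method), and over the removal of each library in turn it lay between -2.94 and -2.11, where no such fit gave a passing loop.

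CAMSAP1, which binds the minus ends of microtubules, had 8, 9 and 9 reads in T98G hypoxia, against 21, 19 and 19 in T98G normoxia. In LN229 it had 12, 21 and 30 reads in hypoxia, against 19, 11 and 10 in normoxia. T98G hypoxia lay below T98G normoxia in every library, while the LN229 groups overlapped with the higher values in hypoxia. The log2 difference was -1.75 (SE 0.62), from -1.14 in T98G and 0.61 in LN229. BACH1, a transcriptional repressor of heme and antioxidant genes, had 6, 2 and 1 reads in T98G hypoxia, against 14, 10 and 7 in T98G normoxia, and 4, 10 and 15 in LN229 hypoxia, against 8, 4 and 1 in LN229 normoxia. Its log2 difference was -2.82 (SE 1.03). ZBTB44, a zinc finger gene, had 4, 3 and 2 reads in T98G hypoxia, against 12, 9 and 7 in T98G normoxia, and 4, 9 and 10 in LN229 hypoxia, against 6, 1 and 5 in LN229 normoxia, a log2 difference of -2.47 (SE 0.90). For all 3 loops the T98G groups were apart and the LN229 groups overlapped, and the adjusted p was 0.401 (edgeR quasi-likelihood, Benjamini-Hochberg).

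Several further loops had fewer reads in T98G hypoxia than in T98G normoxia. The ASXL1 loop at chr20:30954187-30956926, from a Polycomb-associated chromatin regulator, had 5, 4 and 9 reads in T98G hypoxia, against 21, 29 and 14 in T98G normoxia, and 10, 16 and 18 in LN229 hypoxia, against 16, 16 and 17 in LN229 normoxia. Only T98G was apart, with a fitted log2 response of -1.82 (SE 0.49) in T98G and -0.20 (SE 0.44) in LN229. ACVR2A, an activin receptor, had 1, 0 and 2 reads in T98G hypoxia, against 8, 3 and 7 in T98G normoxia, and 3, 8 and 7 in LN229 hypoxia, against 12, 3 and 1 in LN229 normoxia. HIPK2, a stress-responsive kinase, had 3, 1 and 5 reads in T98G hypoxia, against 13, 5 and 8 in T98G normoxia. In LN229 it had 0, 17 and 20 reads in hypoxia, against 12, 4 and 3 in normoxia, so each group held a library that went with the other group. The ACVR2A log2 difference was -2.51 (SE 1.34), and -3.83 without LN229 normoxia replicate 1. That of HIPK2 was -2.36 (SE 1.22). FUT8, the enzyme of core fucosylation, had 0, 1 and 1 reads in T98G hypoxia, against 1, 5 and 1 in T98G normoxia, and 3, 9 and 9 in LN229 hypoxia, against 5, 1 and 2 in LN229 normoxia, and overlapped in both lines (difference -2.96, SE 1.65, and -1.69 without T98G normoxia replicate 2).

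Differences above 0 were led by loops with more reads in T98G hypoxia. FAM13B had 24, 21 and 12 reads in T98G hypoxia, against 5, 8 and 9 in T98G normoxia, and 11, 18 and 10 in LN229 hypoxia, against 17, 8 and 18 in LN229 normoxia. T98G hypoxia lay above T98G normoxia in every library and the LN229 groups overlapped. The fitted log2 response was 1.40 (SE 0.45) in T98G and -0.18 (SE 0.43) in LN229, and the difference of 1.58 (SE 0.63) had a Benjamini-Hochberg adjusted p of 0.568 in edgeR's quasi-likelihood test. PLA2G4A, the cytosolic phospholipase that releases arachidonic acid from membranes, had 12, 5 and 4 reads in T98G hypoxia, against 0, 0 and 2 in T98G normoxia, and 1, 2 and 1 in LN229 hypoxia, against 2, 1 and 5 in LN229 normoxia. The oxygen groups were apart in T98G only, and the log2 difference was 4.19 (SE 1.72, adjusted p = 0.401, same method). Without T98G normoxia replicate 3 that group had no PLA2G4A read, and the fitted difference, which then depends on the prior count, was 6.84. QSER1 had 14, 18 and 8 reads in T98G hypoxia, against 3, 1 and 6 in T98G normoxia, and 15, 6 and 5 in LN229 hypoxia, against 11, 4 and 6 in LN229 normoxia. It too was apart in T98G only, with a log2 difference of 1.78 (SE 0.88).

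VCAN, which encodes the matrix proteoglycan versican, had 5, 2 and 5 reads in T98G hypoxia, against 0, 1 and 1 in T98G normoxia, and 5, 1 and 2 in LN229 hypoxia, against 4, 4 and 4 in LN229 normoxia. Its log2 difference was 3.01 (SE 1.55), and only T98G was apart. A 227-nt loop of the mitochondrial genome, listed under the host name OK/SW-cl.16, had 5, 8 and 4 reads in T98G hypoxia, against 0, 0 and 3 in T98G normoxia, and 2, 7 and 3 in LN229 hypoxia, against 2, 5 and 7 in LN229 normoxia. That log2 difference was 2.74 (SE 1.37), again with T98G alone apart. It was 5.90 without T98G normoxia replicate 3, the only library of its group with a read, a value that depends on the prior count. The class of this loop was sense overlapping and not exonic, and how its junction arose was not tested. The other tested loop under this host name had a difference of 0.57 (SE 1.19), and of -1.65 (SE 1.76) without LN229 normoxia replicate 3. RNF13, a ubiquitin ligase, and NIPBL, the cohesin loader, lie outside the leading 12 and were apart in T98G only. RNF13 had 23, 22 and 20 reads in T98G hypoxia, against 3, 9 and 13 in T98G normoxia, and 8, 12 and 6 in LN229 hypoxia, against 4, 5 and 14 in LN229 normoxia. Its log2 difference was 1.28 (SE 0.74), from 1.42 in T98G and 0.14 in LN229. Without LN229 normoxia replicate 3 the RNF13 response in LN229 was 0.80 and the difference 0.62. The difference for NIPBL was 1.68 (SE 1.01).

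Other differences above 0 came with lower values in LN229 hypoxia. NCOA2, a nuclear receptor coactivator, had 4, 1 and 6 reads in T98G hypoxia, against 1, 2 and 2 in T98G normoxia, and 2, 1 and 0 in LN229 hypoxia, against 7, 6 and 7 in LN229 normoxia. The LN229 groups were apart, with hypoxia lower, and the T98G groups overlapped. The fitted log2 response was 1.10 (SE 0.95) in T98G and -2.64 (SE 1.03) in LN229, a difference of 3.74 (SE 1.40, adjusted p = 0.401, edgeR quasi-likelihood, Benjamini-Hochberg). STT3B, a catalytic subunit of oligosaccharyltransferase, had 7, 5 and 2 reads in T98G hypoxia, against 6, 2 and 6 in T98G normoxia, and 1, 1 and 2 in LN229 hypoxia, against 5, 9 and 4 in LN229 normoxia. Here too LN229 alone was apart, with fitted responses of 0.06 (SE 0.69) in T98G and -2.14 (SE 0.86) in LN229 on the log2 scale. ATXN2, an RNA-binding protein of stress granules, had 8, 4 and 2 reads in T98G hypoxia, against 2, 1 and 2 in T98G normoxia, and 1, 5 and 0 in LN229 hypoxia, against 5, 8 and 4 in LN229 normoxia. The ATXN2 groups were apart in CPM in T98G, where the lowest hypoxia and highest normoxia libraries each had 2 reads, and overlapped in LN229. Its log2 difference was 3.01 (SE 1.35), and 4.65 without LN229 hypoxia replicate 2. Without LN229 normoxia replicate 3 the ATXN2 loop was the 1 loop apart in opposite directions, higher in hypoxia in T98G and lower in LN229 (3.24, adjusted p = 0.611, same method).

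Loops that were higher in LN229 hypoxia with level T98G values gave differences below 0. The PTK2 loop at chr8:141889570-141900868, from the focal adhesion kinase gene, had 3, 2 and 3 reads in T98G hypoxia, against 3, 3 and 3 in T98G normoxia, and 9, 6 and 11 in LN229 hypoxia, against 1, 2 and 3 in LN229 normoxia. LN229 hypoxia lay above LN229 normoxia in every library, with a fitted log2 response of -0.13 (SE 0.73) in T98G and 2.02 (SE 0.70) in LN229. RBM39, a splicing factor, had 3, 2 and 2 reads in T98G hypoxia, against 4, 1 and 5 in T98G normoxia, and 3, 6 and 9 in LN229 hypoxia, against 2, 0 and 1 in LN229 normoxia. The FANCL loop of exons 2 to 5, from the ubiquitin ligase of the Fanconi anaemia core complex, had 3, 2 and 7 reads in T98G hypoxia, against 4, 7 and 6 in T98G normoxia, and 9, 4 and 10 in LN229 hypoxia, against 3, 3 and 2 in LN229 normoxia. Both were apart in LN229 only. The log2 differences were -2.15 (SE 1.01) for PTK2, -2.84 (SE 1.41) for RBM39 and -1.92 (SE 0.95) for FANCL, each with a Benjamini-Hochberg adjusted p of 0.568 in edgeR's quasi-likelihood test.

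**Figure D2:**
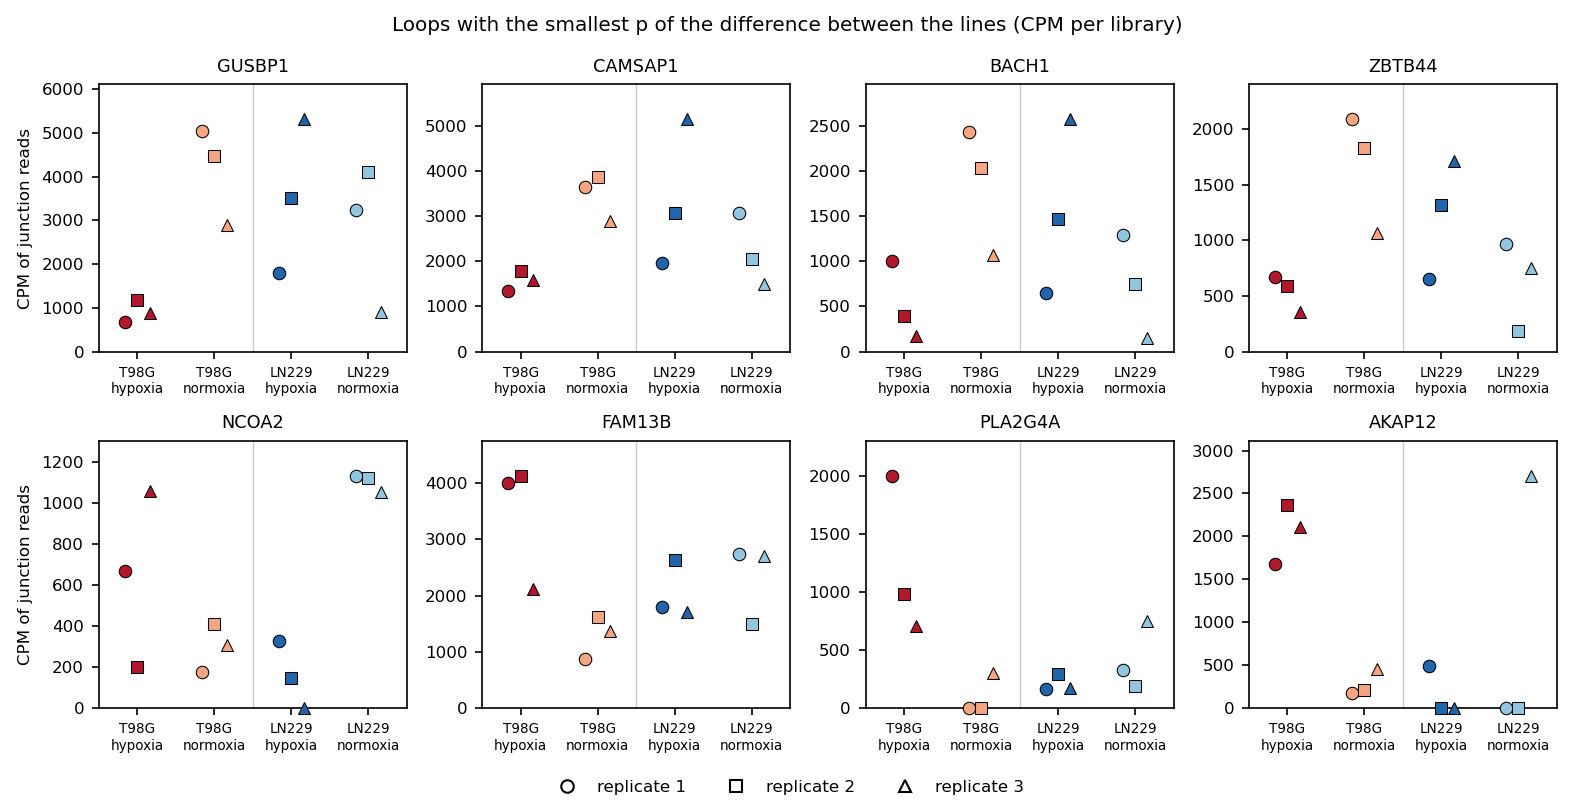
CPM of junction reads per library for the 4 loops with the smallest p below 0 (top row) and 4 leading loops above 0 (bottom row), in T98G hypoxia, T98G normoxia, LN229 hypoxia and LN229 normoxia; each point is 1 library and its shape gives the replicate number. GUSBP1, CAMSAP1, BACH1 and ZBTB44 are lower in every T98G hypoxia library than in any T98G normoxia library, and the AKAP12 value of LN229 normoxia replicate 3 stands far above the other LN229 values.

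Some of the largest differences rested on a single library. AKAP12, a scaffold that anchors protein kinase A, had 10, 12 and 12 reads in T98G hypoxia, against 1, 1 and 3 in T98G normoxia, and 3, 0 and 0 in LN229 hypoxia, against 0, 0 and 18 in LN229 normoxia. All LN229 normoxia reads came from replicate 3, and the log2 difference was 5.16 (SE 1.88, adjusted p = 0.401, edgeR quasi-likelihood, Benjamini-Hochberg). Without that library LN229 normoxia had no AKAP12 read, and the fitted difference, which then depends on the prior count, was -0.35. The DNAH14 loop at chr1:225140372-225161855, from an axonemal dynein heavy chain gene, had 6, 15 and 9 reads in T98G hypoxia, against 0, 0 and 2 in T98G normoxia, and 7, 2 and 0 in LN229 hypoxia, against 0, 0 and 10 in LN229 normoxia. Its log2 difference of 3.92 (SE 2.02) was -0.79 without LN229 normoxia replicate 3, again with no read in that group. The PTPRM loop at chr18:8076453-8143777, from a receptor tyrosine phosphatase of cell adhesion, had 7, 4 and 7 reads in T98G hypoxia, against 0, 0 and 3 in T98G normoxia, and 1, 1 and 0 in LN229 hypoxia, against 1, 0 and 6 in LN229 normoxia. That difference was 4.16 (SE 2.11) with all libraries and 2.27 (SE 2.77) without LN229 normoxia replicate 3. It was 7.30 without T98G normoxia replicate 3, when that group had no read. CYP24A1, the vitamin D 24-hydroxylase and the most abundant loop, had 1327, 998 and 1369 reads in T98G hypoxia, against 0, 1 and 675 in T98G normoxia, and 1494, 387 and 1 in LN229 hypoxia, against 2, 2 and 1870 in LN229 normoxia. The oxygen groups were apart in T98G and mixed in LN229. Its log2 difference was 2.59 (SE 4.14) with all libraries. It was -5.41 without LN229 normoxia replicate 3, and leaving out T98G normoxia replicate 3 instead gave 10.8. This loop is in the T98G-specific count only through LN229 normoxia replicate 3. The same held for other loops of that class, such as PDE4D, WWC3 and ATP5C1. Their LN229 responses were 0.25, 0.03 and 0.18 with all libraries, and 5.59, 4.22 and 1.88 without that library. PDE4D and WWC3 then had no read in LN229 normoxia, so their values depend on the prior count.

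LN229 normoxia replicate 3 was the highest of the 6 LN229 libraries for 6 of the 12 leading loops above 0 and the lowest for 6 of the 12 below 0, against 18.9% and 19.3% of all tested loops. The median log2 difference of the 12 loops above 0 was 3.01 with all libraries and 2.33 without that library, when AKAP12 and DNAH14 had no read in LN229 normoxia and fitted values below 0 that depend on the prior count, and the other 10 loops stayed above 0. The median of the 12 below 0 was -2.49 with all libraries and -2.21 without it, and 12 of 12 stayed below 0. These loops were chosen by this contrast, which contains that library. A high LN229 normoxia value moves the difference above 0 and a low one below 0. An excess over the share of all tested loops is therefore built into the choice, and these counts and medians are only a description. Of the 24, 22 were exonic and 22 were listed in circBase, against 221 and 227 of all 244, and the median length was 651 nt above 0 and 461 nt below 0, against 654 nt over all tested loops.

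**Figure D3:**
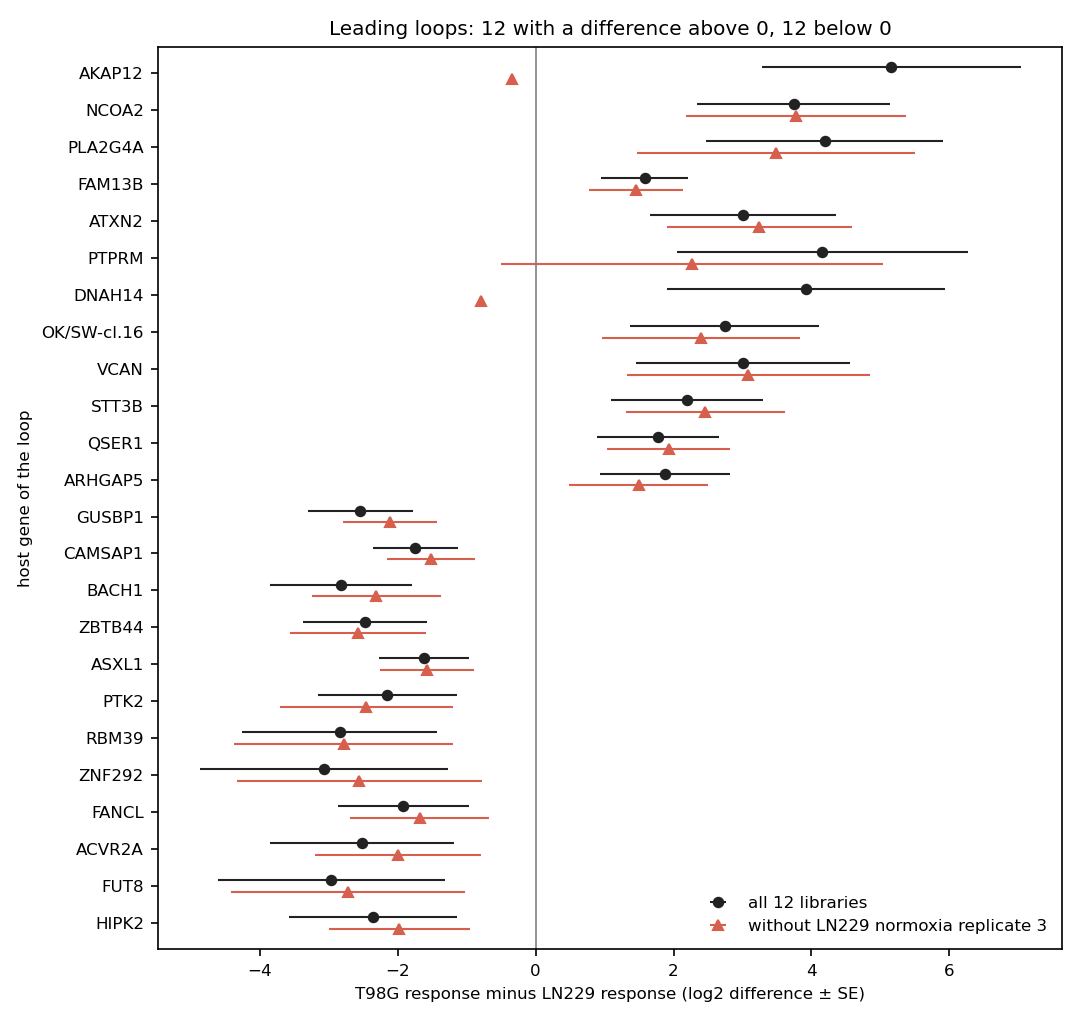
Log2 difference of the hypoxia responses (T98G minus LN229) with its SE for the 12 loops with the smallest p above 0 and the 12 below 0, with all 12 libraries (circles) and without LN229 normoxia replicate 3 (triangles). A triangle without a bar marks a group with no read, where the value depends on the prior count; AKAP12 and DNAH14 cross 0 and the 12 loops below 0 all stay below it.

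The ITGA4 and HLA-DRB1 loops had no read in hypoxia in either line. They were not the only loops with an empty group: of 244 loops, 8 had a group with no read, NF1 and EZR among them. The T98G response passed the test for 1 loop (0.410%), ITGA4, named because it was the only call. DESeq2, limma and RLE size factors called 0, as did the fits without CYP24A1 or with the pairs within sampling noise summed. Integrin alpha 4, its product, is an adhesion receptor subunit. The ITGA4 loop had 0, 0 and 0 reads in T98G hypoxia, against 40, 34 and 11 in T98G normoxia (at least 27.5-fold lower, with a floor of 3 counts over the group), and 0, 0 and 0 in LN229 hypoxia, against 27, 26 and 0 in LN229 normoxia (at least 18.3-fold lower). The adjusted p in T98G was 0.0450 (edgeR quasi-likelihood, Benjamini-Hochberg), and 51 loops (20.9%) had an unadjusted p under 0.05. The LN229 response passed for 0 loops (0%), with 20 (8.20%) at an unadjusted p under 0.05 and 0 calls by DESeq2. Without LN229 normoxia replicate 3 the counts that passed were 29 in T98G and 15 in LN229. HLA-DRB1, a class II antigen presentation gene and the 1 of 15 listed immune markers with a read, likewise had 0, 0 and 0 reads in T98G hypoxia, against 14, 7 and 3 in T98G normoxia, and 0, 0 and 0 in LN229 hypoxia, against 10, 7 and 0 in LN229 normoxia. With no read in either hypoxia group, the difference between the lines cannot be estimated for ITGA4 or HLA-DRB1. MATR3, one of the 7 loops apart in the same direction and chosen as an example after its values were seen, had 6, 6 and 4 reads in T98G hypoxia, against 0, 2 and 3 in T98G normoxia, and 8, 3 and 3 in LN229 hypoxia, against 2, 2 and 0 in LN229 normoxia. Its responses were 1.66 (SE 1.00) in T98G and 1.66 (SE 1.06) in LN229, a log2 difference of 0.01 (SE 1.45).

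Of the host genes, 32 had at least 2 tested loops, 71 loops in all. The loops of 17 hosts all had a difference of the same sign and those of 15 hosts did not, and the median gap between the highest and lowest difference within a host was 1.35 on the log2 scale. PTK2 had 4 tested loops that share a back-splice boundary at 141900868 and extend to different exons. Against -2.15 for the shortest, the others had 0.07 (SE 1.12), -0.02 (SE 0.88) and 1.09 (SE 1.00). The second ASXL1 loop had 0.01 (SE 1.07), against -1.62 (SE 0.66) for the first. The ZNF292 loop at chr6:87920169-87928449 had 0, 0 and 1 reads in T98G hypoxia, against 7, 3 and 5 in T98G normoxia, and 2, 5 and 5 in LN229 hypoxia, against 8, 6 and 1 in LN229 normoxia, a difference of -3.07 (SE 1.80). Without T98G hypoxia replicate 3, the only T98G hypoxia library with a read, it was -5.07, which depends on the prior count. The table classes it as intronic. Circular RNA of ZNF292 is known as hypoxia-induced in endothelial cells. The exonic ZNF292 loop had 11, 5 and 5 reads in T98G hypoxia, against 10, 16 and 10 in T98G normoxia, and 7, 4 and 6 in LN229 hypoxia, against 13, 8 and 5 in LN229 normoxia. It overlapped in both lines, with a difference of -0.12 (SE 0.76).

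The FANCL loops showed opposite directions within LN229. While the loop of exons 2 to 5 was higher in every LN229 hypoxia library, the longer loop of exons 2 to 7 had 2, 1 and 2 reads in LN229 hypoxia, against 3, 7 and 4 in LN229 normoxia, and was lower in every hypoxia library. In T98G the longer loop had 0, 1 and 3 reads in hypoxia, against 5, 6 and 2 in normoxia, with overlap. The LN229 log2 fold change was 1.45 (SE 0.68) for the shorter and -1.48 (SE 1.00) for the longer loop, and neither passed the test. The nearest LN229 libraries of the longer loop held 2 against 3 reads. In LN229 9.84% of all loops were apart, about the share expected when the order of the libraries is random. A host of this kind among 32 can arise in that way, so FANCL is given as a description. Whether the loops of a host differed from each other was not tested.

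**Figure D4:**
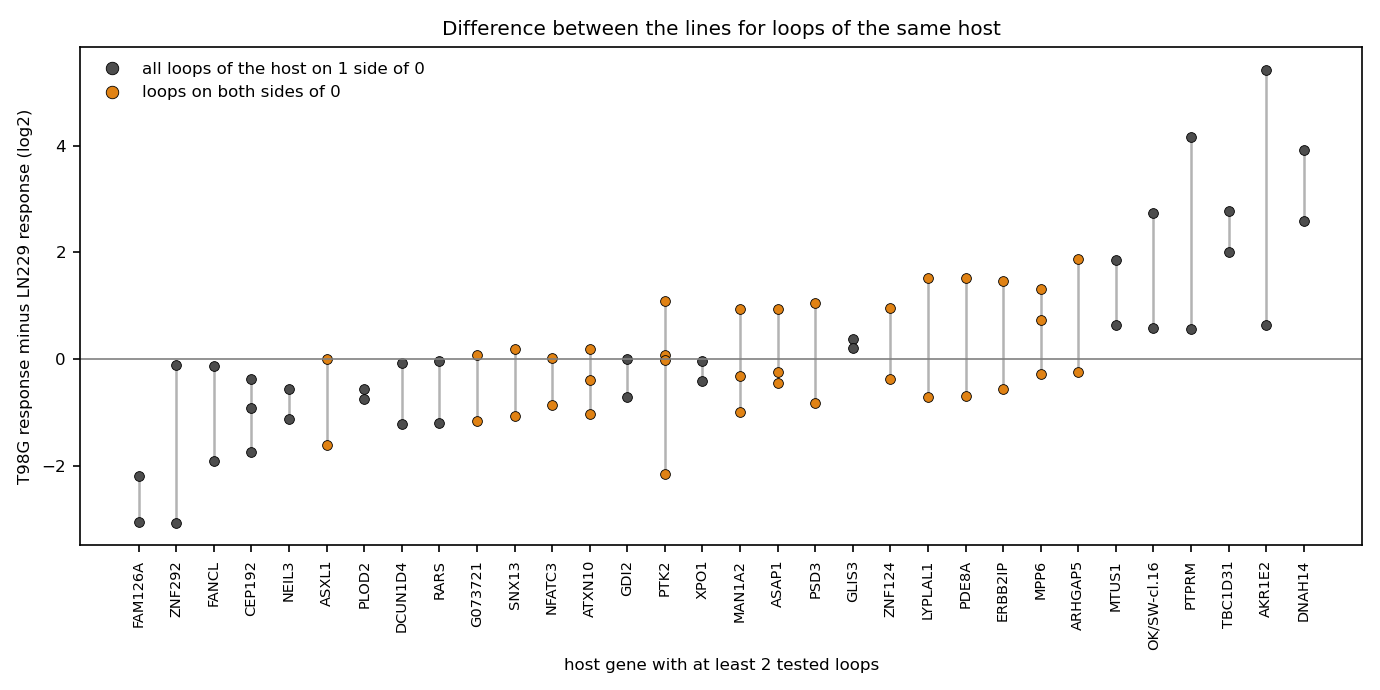
Log2 difference of the hypoxia responses (T98G minus LN229) for every tested loop of the 32 hosts with at least 2 tested loops, hosts ordered by their mean; each point is a loop and the line joins the loops of a host. Loops of 15 hosts (orange) lie on both sides of 0, and the 4 PTK2 loops run from -2.15 to 1.09; the highest AKR1E2 point has no read in T98G normoxia, so its height depends on the prior count.

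Summed over all circRNAs of a host, 416 hosts were tested and 0 (0%) passed (edgeR quasi-likelihood, Benjamini-Hochberg; smallest adjusted p 0.376). At an unadjusted p under 0.05 there were 30 (7.21%), 14 above 0 (3.37%) and 16 below 0 (3.85%), and DESeq2 called 0. The oxygen groups did not overlap for 139 host sums in T98G (33.4%) and 41 in LN229 (9.86%). As for loops, the LN229 share is about that expected when the order of the libraries is random. A few opposite host sums can arise in the same way. By the classes used for loops, 57 host sums were T98G-specific (13.7%), 14 LN229-specific (3.37%), 13 apart in the same direction (3.12%) and 3 apart in opposite directions (0.721%). The 3 opposite hosts were NCOA2, ZCCHC2 and MELK, all higher in hypoxia in T98G and lower in LN229. Each reached 5 reads only in libraries of T98G hypoxia and LN229 normoxia, where it was high, so the filter on low counts favours this pattern. NCOA2 had 4, 3 and 8 reads in T98G hypoxia, against 2, 2 and 2 in T98G normoxia, and 2, 2 and 1 in LN229 hypoxia, against 7, 6 and 7 in LN229 normoxia. Its response was 1.28 (SE 0.73) in T98G and -1.96 (SE 0.74) in LN229, a log2 difference of 3.24 (SE 1.04, adjusted p = 0.376). ZCCHC2 had 8, 5 and 2 reads in T98G hypoxia, against 2, 1 and 2 in T98G normoxia, and 1, 2 and 1 in LN229 hypoxia, against 5, 3 and 5 in LN229 normoxia, a log2 difference of 3.18 (SE 1.21). MELK, a kinase of dividing cells, had 2, 2 and 5 reads in T98G hypoxia, against 0, 1 and 2 in T98G normoxia, and 3, 1 and 2 in LN229 hypoxia, against 5, 3 and 6 in LN229 normoxia (2.68, SE 1.41). In T98G, ZCCHC2 and MELK were apart in CPM only, since the lowest hypoxia library and the highest normoxia library each had 2 reads. The same held for MELK in LN229, with 3 reads in each. MELK was named for its class after its values were seen.

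Several leading host sums had no loop with enough reads to be tested alone. DIAPH3, a formin that nucleates actin filaments, had 0, 0 and 0 reads over 8 circRNAs in T98G hypoxia, against 5, 7 and 1 in T98G normoxia (at least 4.28-fold lower, with a floor of 3 counts over the group), and 0, 5 and 8 in LN229 hypoxia, against 1, 1 and 1 in LN229 normoxia. PPP4R3A, a regulatory subunit of protein phosphatase 4, had 5, 5 and 3 reads over 3 circRNAs in T98G hypoxia, against 0, 0 and 0 in T98G normoxia (at least 4.38-fold higher), and 1, 2 and 0 in LN229 hypoxia, against 2, 0 and 5 in LN229 normoxia. Both were apart in T98G only. SMURF2, a ubiquitin ligase of TGF-beta signalling, had 0, 0 and 1 reads in T98G hypoxia, against 3, 5 and 3 in T98G normoxia, and 1, 9 and 11 in LN229 hypoxia, against 2, 4 and 0 in LN229 normoxia. ZNF148, a zinc finger gene, had 1, 0 and 0 reads in T98G hypoxia, against 8, 9 and 5 in T98G normoxia, and 2, 1 and 9 in LN229 hypoxia, against 1, 4 and 4 in LN229 normoxia. SLC4A7, a sodium bicarbonate cotransporter, had 2, 2 and 2 reads over 17 circRNAs in T98G hypoxia, against 11, 12 and 4 in T98G normoxia, and 5, 16 and 17 in LN229 hypoxia, against 10, 11 and 7 in LN229 normoxia, a log2 difference of -2.49 (SE 0.91). In all 3 the T98G groups were apart and the LN229 groups overlapped. The SMURF2 difference was -4.73 (SE 2.08) and that of ZNF148 -4.43 (SE 1.91). WWC3, a regulator of Hippo signalling and the host here with 1 tested loop, had 7, 10 and 8 reads in T98G hypoxia, against 0, 0 and 1 in T98G normoxia, and 6, 1 and 2 in LN229 hypoxia, against 0, 1 and 9 in LN229 normoxia. The WWC3 difference of 4.40 (SE 2.13) was 2.00 without LN229 normoxia replicate 3. The adjusted p of these host sums was 0.376, except 0.449 for WWC3 (edgeR quasi-likelihood, Benjamini-Hochberg).

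**Figure D5:**
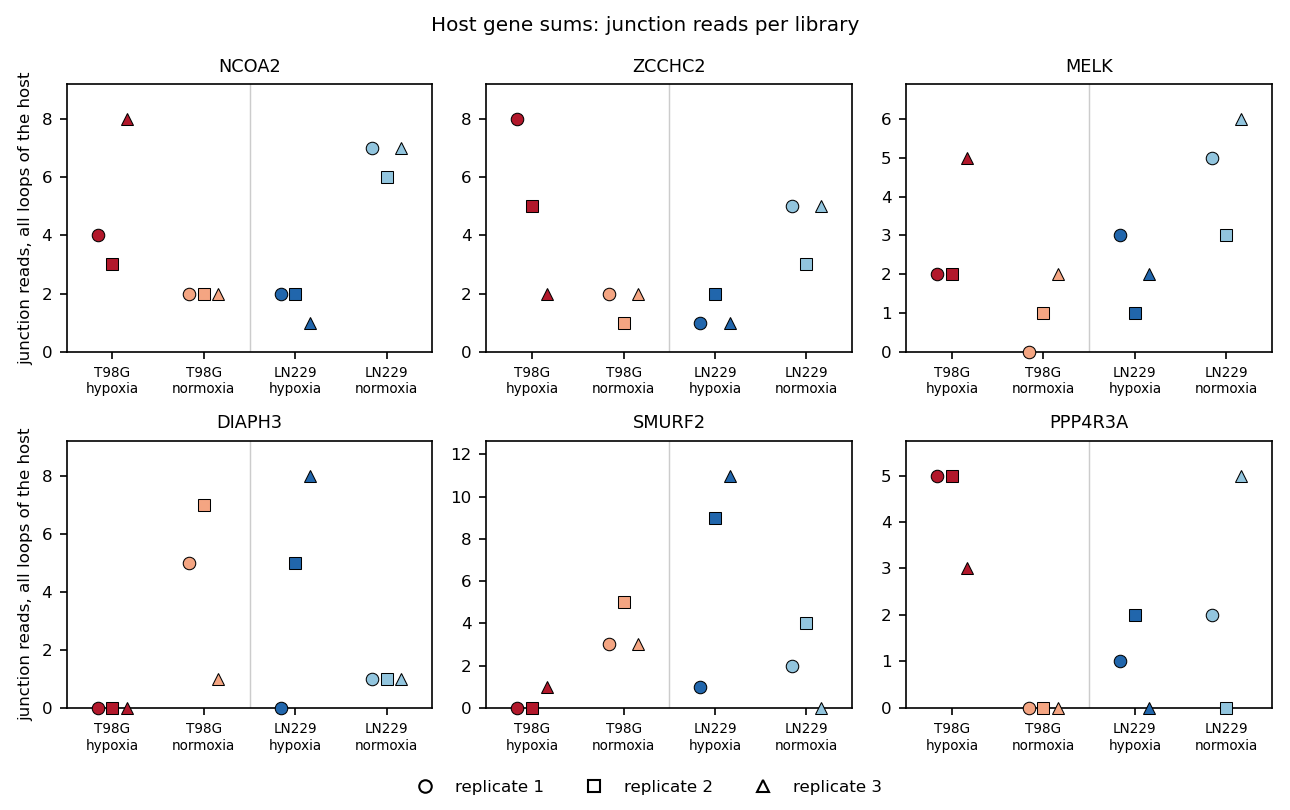
Junction reads per library, summed over all circRNAs of the host, for the 3 host sums apart in opposite directions (NCOA2, ZCCHC2 and MELK) and for DIAPH3, SMURF2 and PPP4R3A, in T98G hypoxia, T98G normoxia, LN229 hypoxia and LN229 normoxia; shapes give the replicate number. NCOA2 has 3 to 8 reads in T98G hypoxia and 2 in each T98G normoxia library, with 1 or 2 in LN229 hypoxia and 6 or 7 in LN229 normoxia.

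Host genes were also read by function, and no loop of any list passed the test in either direction. Of 35 listed hypoxia response hosts, 20 had a read and 5 had 7 tested loops, 1 above and 6 below 0. Their median difference was -0.56, against 0.03 over all 244 loops, of which 127 lay above and 117 below 0. By host sums, 2 of this list were above and 4 below 0 (median -0.21), with 0 at an unadjusted p under 0.05. The loops included HIPK2, both ZNF292 loops and HIPK3 (0.24, SE 0.67). Of the 7, 1 was at an unadjusted p under 0.05, the intronic ZNF292 loop, against 19 of all 244 loops (7.79%). The glycolysis and glycogen list had 14 of 28 hosts with a read and none that could be tested. Splicing and circRNA biogenesis had 4 tested loops, all below 0 (median -1.23, led by RBM39), but 1 host sum above and 5 below 0. DNA replication and repair had 3 loops from 2 hosts, all below 0 (median -1.04, led by FANCL), but 1 host sum above and 4 below 0. The longer FANCL loop among these was near 0 (-0.13, SE 1.46). Cell cycle and mitosis had 2 loops above and 5 below 0 (median -0.82), but 7 host sums above and 4 below 0 (median 0.39). The 20 loops of circRNAs known by name had 8 above and 12 below 0 (median -0.42). Medians were nearer to 0 for the 14 loops of cytoskeleton and small GTPase regulators (-0.06), the 10 of chromatin regulators (0.15, against -0.17 over 14 host sums), the 8 of ubiquitin ligases and proteasome (0.11) and the 7 of extracellular matrix and adhesion (-0.02, or 0.07 without the 2 loops that have a group at 0). The 5 loops of developmental signalling (TGF-beta, Wnt, Notch, Hippo) had a median of 0.65, against -0.07 over 6 host sums, and ran from -2.51 for ACVR2A to 2.27. In arachidonate, prostaglandin and vitamin D metabolism all 3 tested loops, PLA2G4A, PTGR1 and CYP24A1, were above 0. CYP24A1 changed sign without LN229 normoxia replicate 3. PTGR1 had no read in T98G normoxia and, without that library, none in LN229 normoxia, so its value depends on the prior count. Its fitted responses without that library were 4.85 in T98G and 5.17 in LN229, which also turns the sign. By host sums, 2 of the 3 hosts of this list were above 0 and 1 was below 0. Of the glioblastoma drivers, 2 loops were tested, NF1 and PVT1. NF1 had a group with no read, so its value depends on the prior count. PVT1, a long non-coding RNA next to MYC, had 9, 9 and 5 reads in T98G hypoxia, against 2, 2 and 10 in T98G normoxia, and 5, 12 and 12 in LN229 hypoxia, against 2, 2 and 4 in LN229 normoxia, a log2 difference of -0.98 (SE 0.94), and 0.053 without T98G normoxia replicate 3.

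Among neuronal and glial genes, 4 of 31 had a read, and 2 loops were tested, both above 0. The loop antisense to CDR1, listed as hsa_circ_0001946 and known for its many microRNA sites, had 84, 67 and 79 reads in T98G hypoxia, against 3, 1 and 52 in T98G normoxia, and 94, 72 and 65 in LN229 hypoxia, against 3, 4 and 86 in LN229 normoxia. The low values were those of normoxia replicates 1 and 2 in each line. Its log2 difference was 0.84 (SE 1.36) with all libraries, -2.10 without LN229 normoxia replicate 3, 3.77 without T98G normoxia replicate 3 and 0.83 without normoxia replicate 3 of both lines. HIPK3, the third most abundant loop, had 73, 49 and 40 reads in T98G hypoxia, against 50, 33 and 37 in T98G normoxia, and 56, 79 and 44 in LN229 hypoxia, against 60, 39 and 48 in LN229 normoxia, with overlap in both lines. None of 10 fibroblast markers and 1 of 10 endothelial markers had a read, and neither list held a tested loop.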

How the data were processed

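Total RNA was extracted with TRIzol and depleted of ribosomal RNA, per the labels' protocols. CASAVA 1.8, BWA and hg19 appear in the submitters' processing notes, without their roles, and no source used here names the circRNA caller. The authors deposited whole-number counts of junction reads per circRNA and library, and log2 values of a scaling not stated, which served only as an alternative. Of the listed circRNAs, 108 with 624 reads had no host or a placeholder and stayed in library totals and in the loop tests, not in host sums.

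Counts were tested with edgeR 4.0.16 under R 4.3.3 (TMM scaling, quasi-likelihood F test, two-sided), with 1 mean per group over 12 libraries, Benjamini-Hochberg adjustment over all tested features and a threshold of 0.05. The contrast was the T98G change minus the LN229 change. The common dispersion of loops was 0.261 (coefficient of variation 0.511). SE are Wald errors from the fitted means and dispersions, and none is given where a group had no read. Where all libraries of a group had 0 reads, the fold is given as a bound from a floor of 3 counts over that group, which covers counting error only. Libraries were compared pairwise by a chi-square test over tested loops with at least 10 reads in the pair, CYP24A1 left out. Alternatives used limma 3.58.1, DESeq2 1.42.0 and log2(CPM + 50). The steps were also run on simulated counts. Their dispersion was 0.05, below the 0.261 of the tested loops, so those runs do not show performance at the spread of these data.

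The comparison, the gene lists and the tests were chosen with earlier results of these data known. Named were the 12 loops and 6 host sums with the smallest p in each direction, every opposite loop, 4 loops of each line-specific class, all loops of a named host, the loop with the smallest p of each host list not yet named, and the 3 most abundant loops. Junctions were looked for in 29 named exonic loops. All matched 1 junction, 11 lay wholly in coding exons or in a gene without coding transcripts, and 18 touched untranslated sequence and are not printed.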

Additional observations from a re-analysis of the deposited data

Results flagged for a closer look

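Host sums of NCOA2, ZCCHC2 and MELK were picked out because every T98G hypoxia library lay above every T98G normoxia library while every LN229 hypoxia library lay below every LN229 normoxia library. The log2 differences of the responses were 3.24 for NCOA2, 3.18 for ZCCHC2 and 2.68 for MELK. The test of the difference itself passed for none of them (adjusted p = 0.376, 0.376 and 0.680, edgeR quasi-likelihood, Benjamini-Hochberg). Of 416 host sums, 0.721% were of this kind, and the reads behind each value were 8 or fewer. A few of this kind can arise among 416 host sums when the order of the libraries is random. All 3 also passed the filter on low counts only through libraries of T98G hypoxia and LN229 normoxia, the groups where they were high. The filter itself thus favours this pattern, and their count does not show opposite responses. In T98G, ZCCHC2 and MELK were apart in CPM only, with tied reads in the nearest libraries.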

How the results depend on the processing

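The count of loops whose response differed between the lines was 0 in the main analysis and in each fit that left out 1 library. It was 1 without the filter on low counts (AKAP12, 5.07, adjusted p = 0.0400), 1 without normoxia replicate 3 of both lines (GUSBP1, -2.33, adjusted p = 0.0455) and 1 without LN229 normoxia replicate 3 and hypoxia replicate 1 (GUSBP1, -2.47, adjusted p = 0.0305, all edgeR quasi-likelihood, Benjamini-Hochberg), and 0 in the other settings run. Host sums gave 0 in every setting run. The T98G response, with 1 loop, gave 0 with RLE size factors, DESeq2, limma on log2(CPM + 50), CYP24A1 left out or the pairs within sampling noise summed. It gave 3 with the deposited log2 values, 9 without a filter, 4 with at least 10 reads, 2 with robust dispersion, 48 without normoxia replicate 3 of both lines, 40 without the LN229 pair, and 0 to 29 with 1 library left out (16 without T98G normoxia replicate 3, 4 without LN229 hypoxia replicate 1 and 29 without LN229 normoxia replicate 3). The LN229 response, with 0 loops, gave 5 without a filter, 17 without normoxia replicate 3 of both lines, 14 without the LN229 pair and 0 to 15 with 1 library left out (15 without LN229 normoxia replicate 3). The cause of these shifts was not tested.

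Same-numbered libraries were not paired: 3 of 18 pairs of deviations correlated over 0.1 (range -0.545 to 0.674). With the replicate block the interaction gave 0 loops and 0 host sums, the T98G response 9 loops and the LN229 response 3.

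Requiring a 2-fold response left 7 LN229-specific loops. Without normoxia replicate 3 of both lines 1 loop was opposite and 51 moved the same way. Without LN229 normoxia replicate 3, a setting chosen after seeing the data, 1 was opposite, 36 moved the same way and 20 were LN229-specific. Host sum classes, also added after seeing the data, held 6 opposite hosts without normoxia replicate 3 of both lines and 4 without LN229 normoxia replicate 3. Groups with fewer libraries are apart more easily, so these counts cannot be compared directly with those of all libraries.

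Scaling moved the median difference over all loops to 0.15 (RLE), 0.16 (DESeq2) and -0.16 (deposited log2 values), against 0.03, and leaving out LN229 normoxia replicate 3 moved it to -0.25. Of 54 named features, 38 kept their sign in all settings run. Signs reversed without the LN229 pair in DNAH14 225140372-225195246 (-0.51), ARHGAP5 32559708-32586493 (0.39), PTPRM 8076453-8088849 (-1.44), FANCL 58425729-58459247 (0.14), ASXL1 30954187-30959677 (-0.92), ZNF292 87925621-87928449 (0.37), OK/SW-cl.16 8469-8625 (-1.64), CDR1 (-2.05) and CYP24A1 (-3.81). The fitted HLA-DRB1 values, set by the prior count since neither hypoxia group has a read and so no estimate of the difference, also turned (0.052). Without normoxia replicate 3 of both lines they reversed in the same loops of ASXL1 (-0.72), ZNF292 (0.0060) and OK/SW-cl.16 (-1.24), and in the AKAP12 host sum (-0.15). The ASXL1 loop also reversed without a filter (-0.055) and with the replicate block (-0.10), and the OK/SW-cl.16 loop with limma (-0.50) and the deposited log2 values (-0.71). PTK2 141828376-141900868 reversed with the deposited log2 values (-0.025), without a filter (-0.051) and with the pairs summed (-0.22), PTK2 141856359-141900868 with RLE (0.11), DESeq2 (0.12) and CYP24A1 left out (0.040), and the FANCL loop with the pairs summed (0.10).

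With 1 library left out, the ranges of the features that reversed were -0.35 to 8.26 for AKAP12 (host sum -0.74 to 8.24), -0.79 to 6.58 for DNAH14 225140372-225161855 and, for the second loops of their hosts with the coordinates given above, -2.24 to 5.74 for DNAH14, -0.65 to 0.48 for ARHGAP5, -1.67 to 2.88 for PTPRM, -1.35 to 0.44 for FANCL, -0.51 to 0.62 for ASXL1, -0.54 to 0.27 for ZNF292, -0.31 to 0.52 and -0.26 to 0.34 for the PTK2 loops, and -1.65 to 1.14 for OK/SW-cl.16. They were -1.32 to 0.053 for PVT1, -2.10 to 3.77 for CDR1 and -5.41 to 10.8 for CYP24A1, and the prior-set HLA-DRB1 values ran from -1.18 to 0.070. Leading loops kept their sign with 1 library left out, except AKAP12 and that DNAH14 loop: PTPRM 2.27 to 7.30, FANCL -2.56 to -1.62, ZNF292 -5.07 to -2.55 and ARHGAP5 1.10 to 2.30. Loops with fewer than 10 reads per library and a group near 0 carry SE above 1 on the log2 scale. The size of difference that could be detected at this depth was not computed. In the main analysis even the AKAP12 loop, at 5.16, did not pass.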
